A study of Sus scrofa with 30 samples.

Results

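The mitochondrial ribosome and the mitochondrial protein import machinery are described here through 76 genes, out of 6765 gene symbols that a single-symbol probe set of the array names. A gene was taken where its symbol starts with MRPL or MRPS and a digit, or with TIMM or TOMM, and the brightest of its probe sets, by the mean of all arrays, stands for it. The 76 genes comprise 36 proteins named for the large ribosomal subunit (MRPL), 22 named for the small subunit (MRPS), 4 of the TIM23 translocase and its motor, 7 of the TIM22 route (TIMM22 and the small TIM chaperones), 6 of the TOM complex and TOMM34. All 76 passed the filter on dim probe sets in every comparison, and none was listed at 0 on any array.

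The study profiled the epithelial and the mesenchymal tissue of teats of 10 peripubertal pigs on 30 Affymetrix porcine arrays, with 1 array for each piece of tissue. Pigs of commercial dam lines were sampled at slaughter, at a mean end weight of 110 kg; their exact age is not given in the sources used here. In each tissue there were 5 arrays of normal teats from non-affected animals (pigs without inverted teats), 5 of normal teats from affected animals and 5 of inverted teats from the same affected animals. The series asks which genes matter for the predisposition to inverted teats, a defect in which the teat does not protrude. Teats were classed as normal or inverted by looking and feeling. The non-affected animals were 950, 1040 and 1058 (Large White x German Landrace), 957 (German Landrace) and, of Pietrain x (Large White x German Landrace), 1109. The affected animals were 964, 1037 and 1059 (Large White x German Landrace), 963 (German Landrace) and, of Pietrain x (Large White x German Landrace), 1103. The labels name no sorting of cells from the tissue pieces.

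Mitochondria make a handful of respiratory chain proteins on their own ribosome, whose protein subunits are all encoded in the nucleus, translated in the cytosol and imported. Nearly all mitochondrial proteins enter through the TOM complex of the outer membrane; those with a cleavable presequence then pass the TIM23 complex into the matrix, while carrier proteins are guided by the small TIM chaperones to the TIM22 complex. Tissues rich in mitochondria, such as muscle and brown fat, carry much of both machineries.

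Array values are on a log2 scale, so a difference of 1 is a doubling of the signal. A difference between tissues is given as mesenchymal minus epithelial, with the SE of the limma fit, and a gene is called where its Benjamini-Hochberg adjusted p over all probe sets tested is under 0.05. Array medians lay between 5.71 and 6.04. Mesenchymal pieces carried far more muscle and fat transcript than epithelial pieces: in normal teats 27 of 28 skeletal muscle genes and 16 of 18 adipocyte genes were higher there. Of 21 mammary luminal genes, limma called 14 higher in epithelial pieces of normal teats and 2 higher in mesenchymal pieces. Of all probe sets tested, 12.9% and 20.6% were called in these directions. In inverted teats 0 of 20 luminal genes were called by limma in either direction (0 had an unadjusted p under 0.05), and the mean of the luminal list was 7.20 ± 1.84 in epithelial and 7.04 ± 1.91 in mesenchymal arrays (SD, n = 5). The epithelial array of the inverted teat of animal 1103 stood apart: its luminal list mean was 4.28, against 6.52 to 8.89 on the other 14 epithelial arrays, and its keratinocyte list mean was 5.87, against 6.75 to 7.56. Both were lower than in the mesenchymal array of that teat (6.53 and 6.69). In bulk tissue, fewer cells of a type and less RNA per cell cannot be told apart.

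In normal teats the mitoribosomal and import genes were higher in mesenchymal tissue. Of the 76 genes, 59 were called higher there by limma and 0 higher in epithelial tissue, where 0 also had an unadjusted p under 0.05. Over all 18286 probe sets tested, 20.6% were called higher in mesenchymal tissue and 12.9% lower. The median difference of the 76 genes was 0.49, against 0.06 over all probe sets tested, and 72 of the 76 had a higher mean in mesenchymal tissue (55.6% of all probe sets did). A total of 42 of the 76 were higher in the mesenchymal array of all 10 animals, as were 12.5% of all probe sets. In only 4 genes, MRPL24, MRPL43, MRPS21 and TIMM8B, did every mesenchymal array lie above every epithelial array. The same held for 1.96% of all probe sets tested. A dimmer probe set of MRPL43 gave 0.23 ± 0.13 and was not called (limma adjusted p = 0.184). Quantile normalization turned the balance of all probe sets, from 3762 higher and 2360 lower to 2888 higher and 3484 lower, and left 46 of the 76 genes called higher and 0 lower, with a median of 0.39.

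**Figure D1:**
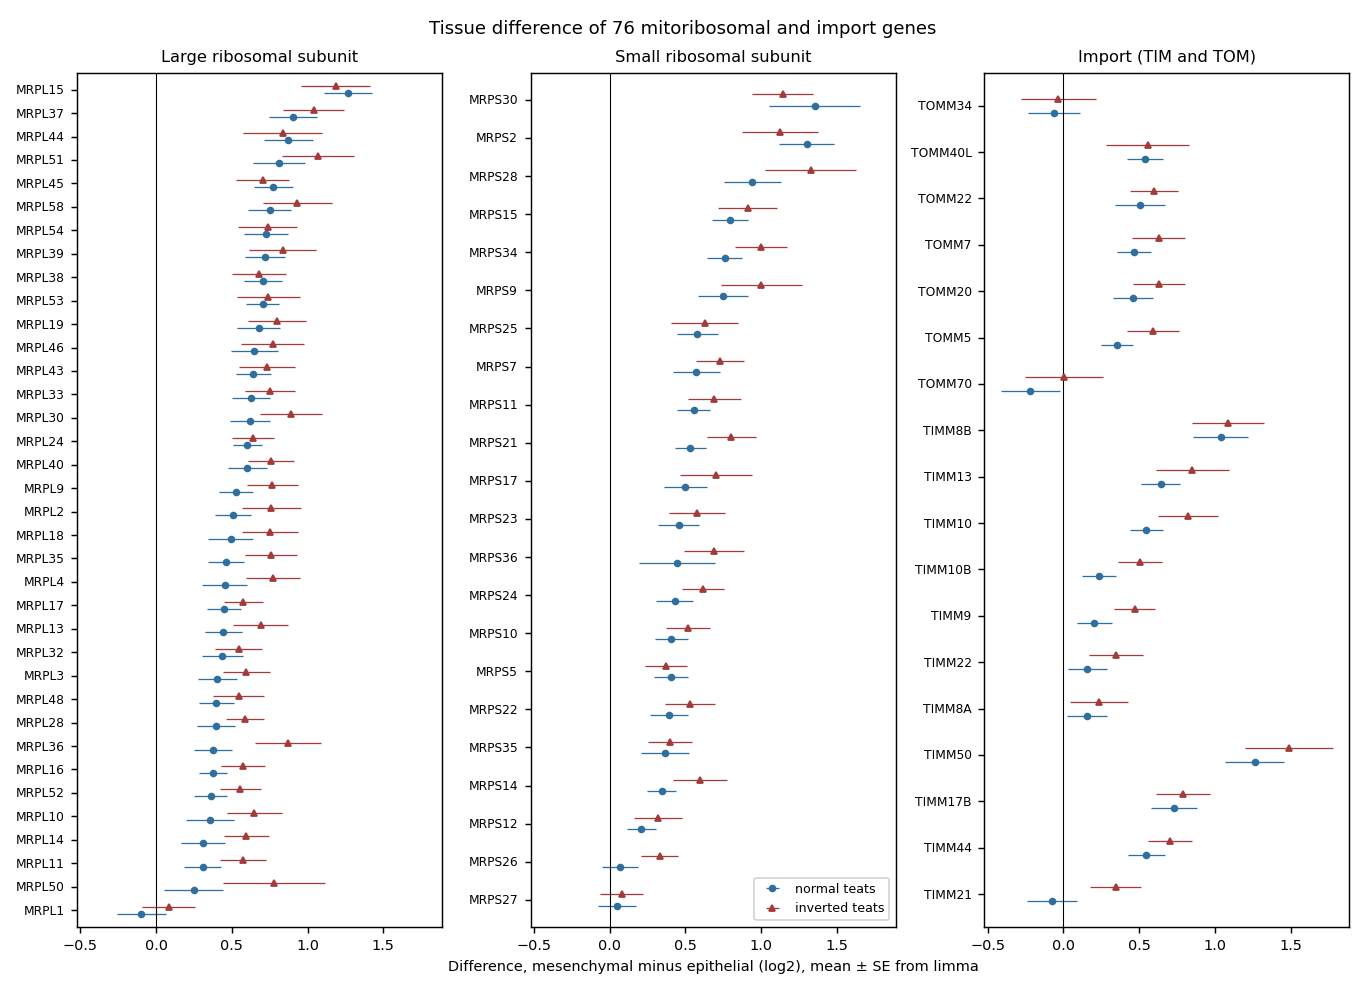
Difference between mesenchymal and epithelial tissue (log2, horizontal axis) for each of the 76 genes, in normal teats (blue circles, 10 animals) and inverted teats (red triangles, 5 animals); bars are the SE of the limma fit. Most points lie to the right of 0 in both teat types, with MRPS30, MRPS2, MRPL15, TIMM50 and TIMM8B farthest out in normal teats and TIMM50, MRPS28 and MRPL15 in inverted teats, and with TOMM70, MRPL1, TIMM21 and TOMM34 at or below 0 in normal teats.

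Among proteins of the large subunit, 31 of 36 were called higher in mesenchymal tissue, with a median difference of 0.52. MRPL15 had the largest difference. Its values in normal teats ran from 7.05 to 8.08 in epithelial arrays (median 7.54) and from 7.98 to 9.40 in mesenchymal arrays (median 8.82). The ranges touched only through animals 1037 and 964: the highest epithelial array, of 1037, exceeded the lowest mesenchymal array, of 964. Within each animal the mesenchymal array was higher, by 0.62 to 2.17, and the difference was 1.27 ± 0.16 (SE, n = 10 animals, limma adjusted p = 2.71e-05), a 2.41-fold higher signal. MRPL37 (0.90 ± 0.16), MRPL44 (0.87 ± 0.16), MRPL51 (0.81 ± 0.17), MRPL45 (0.77 ± 0.13) and MRPL58, a peptidyl-tRNA hydrolase built into the large subunit (0.75 ± 0.14), came next.

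At the other end of the large subunit, 5 of 36 genes were not called in normal teats. MRPL1, a stalk protein, was the 1 large subunit gene with a lower mean in mesenchymal tissue, at -0.10 ± 0.16, and it was lower there in 7 of 10 animals. MRPL50 had 0.25 ± 0.19, MRPL11 0.31 ± 0.12, MRPL14 0.31 ± 0.14 and MRPL10 0.36 ± 0.16. MRPL11, MRPL14 and MRPL10 were higher in mesenchymal tissue in 8 of 10 animals each, with adjusted p of 0.0575, 0.102 and 0.0894 in limma. With the animal as a random replicate block these 3 genes passed (adjusted p = 0.0182, 0.0425 and 0.0326). MRPL52 had the smallest difference among the called large subunit genes (0.36 ± 0.11) and did not pass after quantile normalization.

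Among proteins named for the small subunit, 17 of 22 were called higher in mesenchymal tissue, and all 22 had a higher mean there (median difference 0.48). MRPS30, which keeps a small subunit name although it sits in the large subunit, had the largest difference of all 76 genes and also the widest spread. Its values ran from 2.46 to 5.58 in epithelial arrays (median 4.71) and from 4.89 to 6.41 in mesenchymal arrays (median 5.89). The mesenchymal array was higher in all 10 animals, by 0.55 to 2.70, and the difference was 1.35 ± 0.30 (SE, n = 10 animals, limma adjusted p = 0.0024). MRPS30 is a dim probe set: it exceeded the 30th percentile of the array, which lay between 4.49 and 4.84, on 23 of 30 arrays, and its lowest epithelial values came from animals 964 and 1103.

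MRPS2 was measured well above that floor. It ran from 6.74 to 7.98 in epithelial arrays (median 7.66) and from 7.82 to 9.62 in mesenchymal arrays (median 8.96). Only the mesenchymal array of animal 950, at 7.82, reached into the epithelial range, and that animal also had the lowest epithelial value. The difference was 1.30 ± 0.18 (SE, n = 10 animals, limma adjusted p = 5.23e-05), a 2.46-fold higher signal, with 10 of 10 animals higher in mesenchymal tissue. A dimmer probe set of MRPS2 gave 0.42 ± 0.17 and did not pass (adjusted p = 0.0572). MRPS28 (0.94 ± 0.19), MRPS15 (0.79 ± 0.12), MRPS34 (0.76 ± 0.12) and MRPS9 (0.75 ± 0.16) followed.

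The small subunit genes that were not called were MRPS27 (0.05 ± 0.13), MRPS26 (0.07 ± 0.12), MRPS12 (0.21 ± 0.10), MRPS35 (0.36 ± 0.16) and MRPS36 (0.45 ± 0.25). With the animal as a replicate block MRPS35 passed in limma (adjusted p = 0.0263 random, 0.0202 fixed, against 0.0845). MRPS27, an RNA-binding protein of the pentatricopeptide repeat family, lay between 6.01 and 6.81 in epithelial arrays and between 6.14 and 7.21 in mesenchymal arrays, so its ranges lay almost on top of each other. MRPS26 was likewise spread over both tissues, between 8.42 and 9.05 in the epithelial and 8.36 and 9.36 in the mesenchymal arrays. A dimmer probe set of MRPS12 did pass, at 0.39 ± 0.11 (limma adjusted p = 0.0098). MRPS22 (0.39 ± 0.13) and MRPS14 (0.34 ± 0.10) had the smallest differences among the called genes of this subunit, and neither passed after quantile normalization.

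In the presequence route, TIMM50, the receptor of the TIM23 complex that takes over precursors from the TOM complex, stood at 1.26 ± 0.20 (SE, n = 10 animals, limma adjusted p = 1.20e-04), 2.40-fold. Its values ran from 5.77 to 7.17 in epithelial arrays (median 6.39) and from 6.92 to 8.30 in mesenchymal arrays (median 7.67). The ranges met only through the epithelial array of animal 1037, at 7.17, and the mesenchymal array of animal 964, at 6.92. A dimmer probe set of TIMM50 gave 1.55 ± 0.18 (adjusted p = 2.15e-05). TIMM17B, a channel subunit, was higher by 0.73 ± 0.15, and TIMM44, which tethers the chaperone motor to the channel, by 0.55 ± 0.12; both were higher in mesenchymal tissue in 10 of 10 animals. TIMM21, which links the TIM23 complex to the TOM complex, was not called (-0.07 ± 0.17) and was higher in mesenchymal tissue in 6 of 10 animals.

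In the carrier route, 3 of 7 genes were called. TIMM8B, a small chaperone of the intermembrane space, ran from 8.49 to 9.06 in epithelial arrays (median 8.65) and from 9.17 to 10.78 in mesenchymal arrays (median 9.61). The tissues did not overlap, and the epithelial arrays lay much closer together (SD 0.17) than the mesenchymal arrays (SD 0.56). Its difference was 1.04 ± 0.18 (SE, n = 10 animals, limma adjusted p = 3.22e-04). TIMM13, the usual partner of the TIMM8 proteins, was higher by 0.64 ± 0.13 and TIMM10, which forms a chaperone ring with TIMM9, by 0.55 ± 0.11. TIMM9 itself (0.20 ± 0.11), TIMM10B (0.24 ± 0.11), TIMM8A (0.16 ± 0.13) and the carrier translocase TIMM22 (0.16 ± 0.13) were not called, although each was higher in mesenchymal tissue in 8 of 10 animals.

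In the TOM complex, 5 of 6 genes were called. TOMM40L, a paralog of the channel protein, was higher by 0.54 ± 0.12, the central receptor TOMM22 by 0.51 ± 0.17, the small subunit TOMM7 by 0.47 ± 0.11, the presequence receptor TOMM20 by 0.46 ± 0.13 and the small subunit TOMM5 by 0.35 ± 0.10. After quantile normalization, of these 5 only TOMM40L passed. TOMM70, the receptor for carrier precursors, ran from 6.28 to 7.43 in epithelial arrays (median 6.78) and from 5.52 to 7.11 in mesenchymal arrays (median 6.73). Its tissues overlapped almost fully, the mesenchymal array was the higher one in 5 of 10 animals, and its difference was -0.22 ± 0.20 (SE, limma adjusted p = 0.410). TOMM34, a cytosolic cochaperone that carries a TOM name, was also split over the animals, with 5 of 10 higher in mesenchymal tissue (-0.06 ± 0.17).

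**Figure D2:**
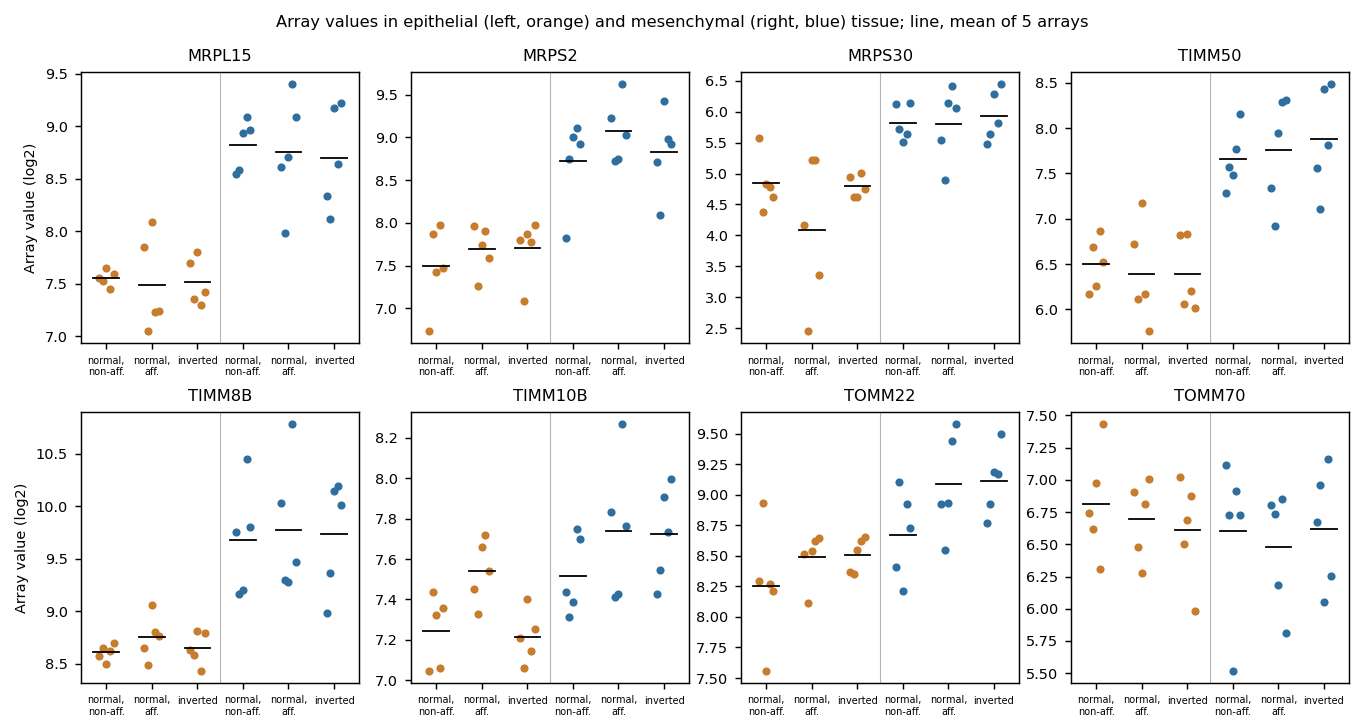
Array values (log2, vertical axes) of 8 genes in the 6 groups of 5 arrays, epithelial groups in orange and mesenchymal groups in blue; lines mark group means. MRPL15, MRPS2, TIMM50 and TIMM8B separate by tissue with little or no overlap, MRPS30 shows 2 low epithelial arrays in normal teats of affected animals, and TOMM70 does not separate.

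In inverted teats the tissue difference ran the same way. Of the 76 genes, 56 were called higher in mesenchymal and 0 in epithelial tissue, where 11.5% of the 17108 probe sets tested were called higher and 0.848% lower. The median difference was 0.69, against 0.12 over all probe sets tested, and 75 of 76 had a higher mean in mesenchymal tissue (60.6% of all probe sets). In 53 genes the 5 mesenchymal arrays all lay above the 5 epithelial arrays, as in 11.9% of all probe sets, and 67 genes were higher in all 5 animals, as were 27.6%. The calls rest on few animals, for all probe sets as for the 76 genes. Without 1037, 1059 or 1103 limma called 0 of the 76 genes and 1 of all probe sets. An unadjusted p under 0.05 was left in 65, 63 and 65 of the 76. Without 964 the count was 34 (7.79% of all probe sets higher) and without 963 it was 43 (7.93%). The median difference over the 76 genes stayed between 0.58 and 0.77 when each animal was left out. Quantile normalization moved the median of all probe sets from 0.12 to -0.01 and left 0 of the 76 genes and 1 probe set called higher, with 1 called lower (unadjusted p under 0.05 in 47 of the 76); the median of the 76 genes then lay 0.49 above that of all probe sets. Median centring left 7 of the 76 called and, over all probe sets, 480 higher and 113 lower against 1970 and 145.

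TIMM50 had the largest difference there. Its epithelial arrays read 6.82 (animal 963), 6.06 (964), 6.83 (1037), 6.20 (1059) and 6.02 (1103), and its mesenchymal arrays 7.56, 7.10, 8.43, 7.81 and 8.48 in the same order. The tissues did not overlap, and the difference was 1.49 ± 0.29 (SE, n = 5 animals, limma adjusted p = 0.0168). MRPS28 (1.33 ± 0.30), MRPL15 (1.18 ± 0.23), MRPS30 (1.14 ± 0.20), MRPS2 (1.12 ± 0.25) and TIMM8B (1.09 ± 0.24) followed. MRPL15 read 7.69, 7.35, 7.80, 7.29 and 7.42 in epithelial arrays of these animals and 8.34, 8.12, 9.17, 8.64 and 9.22 in mesenchymal arrays. In both genes the tissue gap was widest in animal 1103, whose epithelial array had the low luminal and keratinocyte lists. Neither gene was called without that animal, nor without 1037 or 1059, where limma called 0 of the 76 genes.

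By role, 32 of 36 large subunit genes (median 0.75), 12 of 22 small subunit genes (0.66), 3 of 4 of the TIM23 group (0.75), 5 of 7 of the TIM22 route (0.51) and 4 of 6 of the TOM complex (0.60) were called in inverted teats. A total of 50 genes were called in both teat types and 11 in neither. Those called in neither were MRPL1, MRPL50, MRPS12, MRPS26, MRPS27, MRPS35, TIMM21, TIMM22, TIMM8A, TOMM34 and TOMM70; of these MRPS35 passed in both with the random replicate block (limma adjusted p = 0.0491 in inverted teats). TOMM70 stood at 0.00 ± 0.26 and TOMM34 at -0.03 ± 0.25 in inverted teats, while TIMM21 had 0.35 ± 0.17 there. Calls in 1 teat type only were 9 in normal teats (among them MRPL44 and TOMM40L) and 6 in inverted teats (MRPL10, MRPL11, MRPL14, MRPS36, TIMM10B and TIMM9).

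The difference between these tissue differences was tested over all 30 arrays. The fit held no term for the animal, although arrays of the same animal enter several groups, so it was not a test within animals. For inverted minus normal teats of affected animals, 0 of 18783 probe sets were called by limma (0%), and 0 of the 76 genes had an unadjusted p under 0.05 (0.91% of all probe sets did). The median of the 76 differences was 0.16, against 0.07 over all probe sets; it was 0.07 with quantile normalization and ran from 0.05 without animal 1037 to 0.27 without 963. The smallest p among the 76 belonged to MRPL36, whose tissue difference was larger by 0.44 ± 0.27 in inverted teats (adjusted p = 0.99999), and to TIMM10B, larger by 0.31 ± 0.21. For affected minus non-affected animals in normal teats, 0 probe sets (0%) and 0 of the 76 genes passed, 0 of the 76 had an unadjusted p under 0.05 against 0.644% of all probe sets, and the median was 0.05. This median turned to -0.05 without animal 1059 and was 0.14 without 1037. MRPS30 had the smallest p there, with a tissue difference larger by 0.74 ± 0.53 in affected animals.

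Within the 30-array fit, 30 of the 76 genes were called higher in mesenchymal tissue in normal teats of non-affected animals (8.67% of all probe sets), 33 in normal teats of affected animals (9.03%) and 61 in inverted teats (12.3%). With the animal as a random replicate block the counts were 48, 55 and 65. Each count fell when some single animals were left out. Calls over all probe sets were not counted for these fits or for the replicate block. A loss of calls particular to the 76 genes thus cannot be told from a general one. In non-affected animals the count was 3 without 1109, 12 without 1058 and 13 without 1040. In normal teats of affected animals it was 0 without 1059, 4 without 1103 and 21 without 963, and in inverted teats it was 15 without 1103. The medians of the 76 genes were 0.48, 0.52 and 0.69.

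The other mitochondrial genes of the array place these values. In normal teats 55 of 58 respiratory chain genes were called higher in mesenchymal tissue, with a median difference of 0.74, and 28 of 30 genes of the citrate cycle and fatty acid oxidation, with a median of 0.89. NDUFA9 of complex I (1.33 ± 0.16), NDUFB1 of complex I (1.31 ± 0.23), PDHB of pyruvate dehydrogenase (1.45 ± 0.18) and ETFDH, which feeds electrons from fatty acid oxidation into the chain (1.45 ± 0.18), led these lists. Among import partners and proteases, 18 of 23 were called, with a median of 0.59; the outer membrane channel VDAC1 had 1.32 ± 0.13 and PMPCB, a subunit of the presequence peptidase, 1.05 ± 0.14. The median of the 76 genes, 0.49, lay below all of these medians. With quantile normalization the medians were 0.39 for the 76 genes, 0.44 for the respiratory chain (43 called) and 0.70 for the citrate cycle list. The differences between lists were not tested.

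The list of translation factors and mitochondrial tRNA synthetases was mixed. Of its 18 genes tested, 8 were called higher in mesenchymal tissue and 1 lower (median 0.31). The elongation factors TSFM (0.91 ± 0.18) and TUFM (0.84 ± 0.13) were highest. The list also holds DAP3 (0.34 ± 0.11, called) and PTCD3 (0.32 ± 0.14, not called), small subunit proteins that the symbol rule misses. Of 7 genes of mitochondrial biogenesis and DNA maintenance, 0 were called higher and 1 lower by limma (median 0.12). The lower one was TFAM, which packages mitochondrial DNA and starts its transcription, at -0.57 ± 0.16 (adjusted p = 0.0106). Of 61 proteins of the cytosolic ribosome, 2 were called higher, RPS27L (0.42 ± 0.09) and RPS15A (0.41 ± 0.15), and the median was 0.02 (-0.17 with quantile normalization). In inverted teats the cytosolic ribosome had 2 of 61 called and a median of 0.22 (-0.09 with quantile normalization). The respiratory chain had 58 of 58 called there and a median of 0.91. With quantile normalization it had 0 called and a median of 0.51, against 0.47 for the 76 genes.

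**Figure D3:**
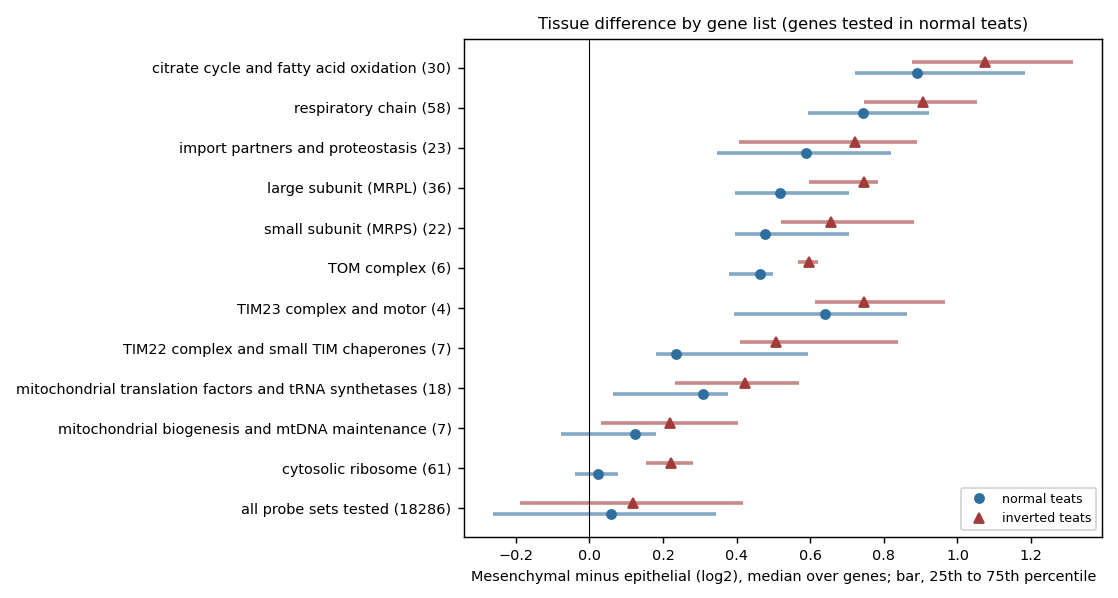
Tissue difference (log2, horizontal axis) by gene list in normal teats (blue circles) and inverted teats (red triangles); symbols are medians over genes and bars run from the 25th to the 75th percentile of genes, with the number of genes tested in normal teats in brackets. Both ribosomal subunits and the TOM list lie between the cytosolic ribosome, at 0.02 in normal teats, and the respiratory chain, at 0.74. With quantile normalization, not drawn here, the cytosolic ribosome lay at -0.17 and the respiratory chain at 0.44.

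Within single teats the 76 genes could be set beside the respiratory chain list pair by pair. Their median difference was above 0 in all 15 pairs of tissue pieces, above the median of all probe sets in 15 of 15, above the cytosolic ribosome median in 15 of 15 and below the respiratory chain median in 15 of 15. It was smallest in the normal teat of animal 1037, where it was 0.21 with 53 of 76 genes higher in mesenchymal tissue, and where the respiratory chain median was 0.26. Among normal teats it was largest in animal 1059 (0.90, with 73 of 76 genes higher), where the respiratory chain stood at 1.19. Among inverted teats it was largest in animal 1103 (1.07, 75 of 76) with the respiratory chain at 1.33 and with the luminal list higher in the mesenchymal piece by a median of 1.91, and smallest in animal 963 (0.33, 71 of 76) with the respiratory chain at 0.53. The lists share arrays and the values are as deposited, without quantile normalization, so this is a description of these 15 pairs.

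Muscle and fat transcript differed between the same pieces. The mean of the skeletal muscle list lay between 3.003 and 8.11 in epithelial arrays of normal teats, between 3.14 and 11.55 in their mesenchymal arrays, and between 3.62 and 7.77 and 3.36 and 10.77 in those of inverted teats. Of its 7 defining genes, the fast myosin light chain MYLPF was listed at 0 on 4 of 15 epithelial arrays, the fast troponins TNNT3 and TNNC2 on 6 and 2, the myosin MYH2 on 4, and TNNI2, MYH7 and CKM on 0. On mesenchymal arrays TNNT3 was listed at 0 on 2 of 15 and TNNI2 on 1. The mean of the adipocyte list lay between 7.74 and 9.75 in epithelial arrays of normal teats, between 9.48 and 11.02 in their mesenchymal arrays, and between 7.20 and 9.20 and 9.11 and 11.06 in those of inverted teats, with ADIPOQ, FABP4, CIDEA and GPD1 above 0 on every array. By the median over its genes, the adipocyte list was higher in the mesenchymal piece in 15 of 15 pairs, the muscle list was higher in 14 of 15 and the luminal list was lower in 11 of 15. In inverted teats EPCAM had medians of 9.60 in epithelial and 9.64 in mesenchymal arrays, and KRT19 10.95 and 10.68. The other luminal markers had lower medians in mesenchymal arrays there: KRT8 10.77 and 10.02, KRT18 8.83 and 8.26, and CLDN4 7.78 and 7.39.

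The pair with a lower median of the muscle genes in the mesenchymal piece was the inverted teat of animal 963. There the muscle list was lower in the mesenchymal than in the epithelial piece, with a median difference of -4.42, while the adipocyte list was higher by 1.16 and 71 of the 76 genes were higher in the mesenchymal piece, with a median of 0.33. In the normal teat of animal 1040 the muscle list differed by a median of 0.31, but its mean was 3.201 in the epithelial and 3.14 in the mesenchymal piece, and the adipocyte list differed by 2.07; 67 of the 76 genes were higher in the mesenchymal piece, with a median of 0.42. In the normal teat of animal 1058, with the smallest adipocyte difference of all pairs (0.36) and a muscle difference of 4.83, the 76 genes had a median of 0.66. With the array mean of the muscle list as a covariate, 18 of the 76 genes and 9.3% of all probe sets were called higher in normal teats. The median of the 76 genes was then 0.41. With the array mean of the adipocyte list, limma called 0 of the 76 genes (11 had an unadjusted p under 0.05) and 1 of all 18286 probe sets. The median was 0.29, with 69 of 76 genes above 0. With the mean of the luminal keratins, 23 of the 76 genes and 8.29% of all probe sets were called higher. The median of the 76 genes was 0.38. In inverted teats the muscle covariate, an alternative chosen after seeing the data, left 0 of the 76 called by limma (62 with an unadjusted p under 0.05) and 1 of all probe sets, with a median of 0.59.

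**Figure D4:**
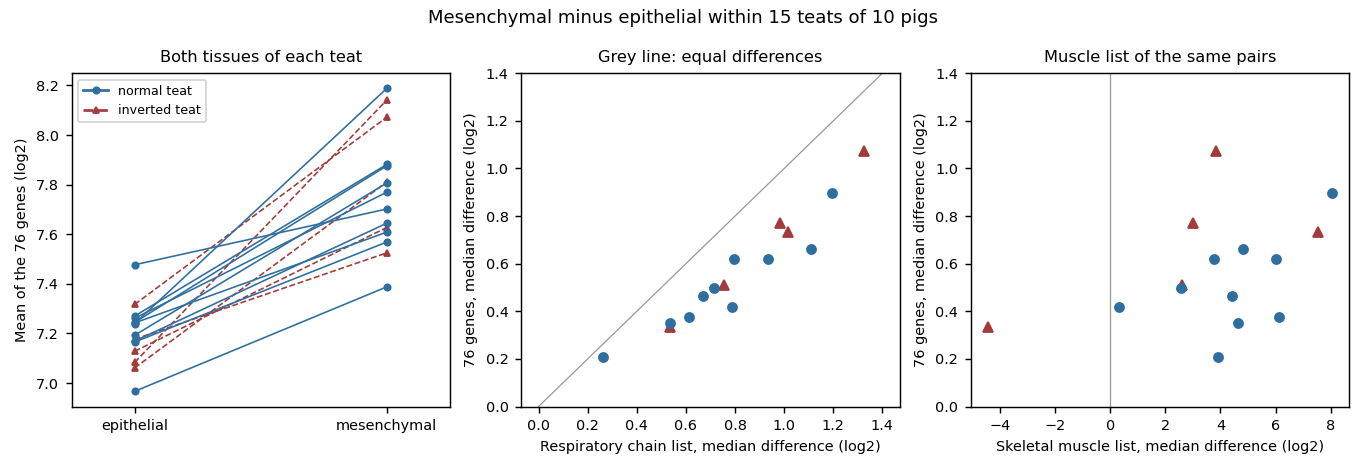
Both tissues of 15 teats of 10 pigs. Left, mean of the 76 genes (log2) in the epithelial and mesenchymal array of each teat; middle and right, median difference of the 76 genes (log2) against that of the respiratory chain and skeletal muscle lists, normal teats as blue circles and inverted teats as red triangles. Each line rises, each point in the middle panel lies below the line of equal differences, and the inverted teat of animal 963 lies at a muscle difference of -4.42 with the 76 genes at 0.33.

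Between teat types and between affected and non-affected animals, no gene of the 76 was called in either tissue. In each of the 6 comparisons limma called 0 of 17661 probe sets in epithelial or 0 of 17839 in mesenchymal tissue (0%). Group means of the 76 genes were close together. In epithelial tissue they averaged 7.21 ± 0.05 in normal teats of non-affected animals, 7.24 ± 0.18 in normal teats of affected animals and 7.15 ± 0.10 in inverted teats (SD, n = 5). In mesenchymal tissue the averages were 7.70 ± 0.14, 7.78 ± 0.29 and 7.84 ± 0.27. Within either tissue these group means differed by less than the larger SD among their arrays.

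In epithelial tissue, inverted teats had slightly lower values than normal teats of the same affected animals: 59 of the 76 genes had a lower mean, with a median of -0.10 (all probe sets, 0.00), and 2 genes had an unadjusted p under 0.05 against 1.72% of all probe sets. The cytosolic ribosome (60 of 60 lower, median -0.10) and the respiratory chain (54 of 58 lower, median -0.11) shifted by as much. Genes share the same arrays, so these directions are not independent of each other. The mean of the skeletal muscle list was 4.67 ± 2.01 in these normal and 6.12 ± 1.74 in these inverted teats, and that of the luminal list 7.81 ± 0.79 and 7.20 ± 1.84 (SD, n = 5); their part in the values of the 76 genes was not tested. The median of the 76 genes ran from -0.17 without animal 964 to -0.07 without 1037. The fit held no term for the animal. With the animal as a random replicate block, 3 of the 76 genes had an unadjusted p under 0.05 (smallest limma adjusted p = 0.841). So did 992 of 17661 probe sets, against 303 without the block. TIMM10B, a small chaperone bound to the TIM22 complex, read 7.45, 7.33, 7.66, 7.72 and 7.54 in normal teats of animals 963, 964, 1037, 1059 and 1103 and 7.21, 7.06, 7.40, 7.15 and 7.26 in their inverted teats. The inverted teat was lower in 5 of 5 animals and the groups overlapped only slightly. The difference was -0.32 ± 0.12 (SE, n = 5 animals, limma unadjusted p = 0.0173, adjusted p = 0.9997). Normal teats of affected animals were higher in TIMM10B than those of non-affected animals by 0.29 ± 0.12 (unadjusted p = 0.0280, adjusted p = 0.9995; 1 of the 76 genes was under 0.05 unadjusted there, against 2.38% of all probe sets), so inverted teats and normal teats of non-affected animals, both at lower values, differed by -0.03 ± 0.12.

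MRPL36 followed the same order in epithelial tissue. It read 7.35, 7.01, 7.44, 7.002 and 7.25 in normal and 6.96, 6.98, 7.14, 6.61 and 6.47 in inverted teats of those 5 animals. The inverted teat was the lower one in each animal, by little in animal 964, and the difference was -0.38 ± 0.15 (SE, limma unadjusted p = 0.0199, adjusted p = 0.9997). MRPS36, a protein also described as a subunit of the alpha-ketoglutarate dehydrogenase complex, was lower in inverted teats than in normal teats of non-affected animals (-0.51 ± 0.21, limma unadjusted p = 0.0263, adjusted p = 0.9997) and was the 1 gene of the 76 with an unadjusted p under 0.05 in that comparison, against 2.74% of all probe sets. MRPS30 gave 0.70 ± 0.42 for inverted minus normal teats of affected animals and -0.75 ± 0.42 for affected minus non-affected animals. Both values rest on the low normal-teat epithelial arrays of animals 964 and 1103, at 2.46 and 3.36.

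In mesenchymal tissue 0 of the 76 genes had an unadjusted p under 0.05 in any of the 3 comparisons, against 0.437%, 1.13% and 1.23% of all probe sets. The median difference was 0.05 for inverted minus normal teats of affected animals (all probe sets, 0.07; the 76 genes, -0.02 with quantile normalization), 0.08 for affected minus non-affected animals (all, -0.02) and 0.14 for inverted teats minus normal teats of non-affected animals (all, 0.05). Leaving out 1 animal moved the first from -0.03 (without 1037) to 0.15 (without 1059), the second from -0.03 (without 1059) to 0.19 (without 964) and the third from 0.06 (without 1103) to 0.23 (without 963). In the last comparison 68 of the 76 genes had a higher mean in inverted teats, as did 60 of 61 cytosolic ribosome genes, with a median of 0.14 in both lists. The median of the 76 genes was 0.08 there with quantile normalization and 0.12 with median centring. Genes share the same arrays, so such counts are not independent signs. TOMM22 (0.43 ± 0.23) and MRPL14 (0.41 ± 0.23) had the smallest p there, and the same genes stood highest for affected minus non-affected animals (0.41 ± 0.23 and 0.47 ± 0.23). MRPL14 read 7.31, 7.24, 7.15, 7.79 and 7.66 in normal teats of animals 950, 957, 1040, 1058 and 1109, and 8.06, 7.39, 7.40, 8.44 and 8.21 in those of 963, 964, 1037, 1059 and 1103. These groups overlapped, and the 2 comparisons share the arrays of non-affected animals. The skeletal muscle list differed in these comparisons too, by a median of -1.39 for inverted minus normal teats of affected animals and 1.22 for affected minus non-affected animals, and 0 of its genes were called; its part in the values of the 76 genes was not tested.

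**Figure D5:**
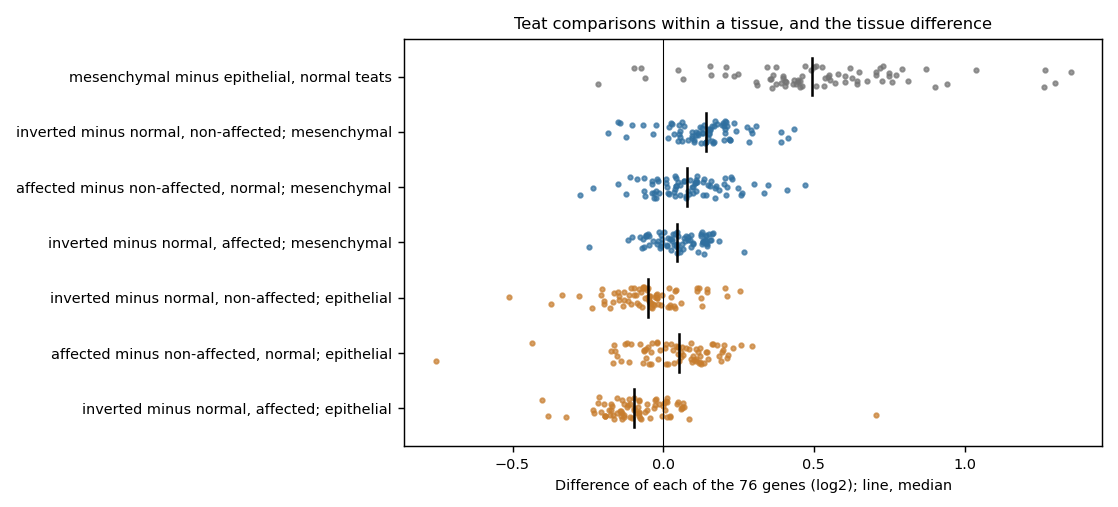
Differences of each of the 76 genes (log2, horizontal axis) in the 6 comparisons between teats within epithelial (orange) or mesenchymal (blue) tissue, and in the comparison of tissues in normal teats (grey); black lines are medians and the vertical spread of points is arbitrary. Medians of the teat comparisons lie between -0.10 and 0.14, against 0.49 for the tissue comparison.

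Other probe sets of the same genes mostly had the same sign, but many were not called. A dimmer one was called higher for MRPL2, MRPL18, MRPL46, MRPS9, MRPS12 and TIMM50. It was not called for MRPL3, MRPL32, MRPL38, MRPL43, MRPL52, MRPS2 and TIMM44, nor was a further one of MRPL46. That of MRPL38 gave 0.08 ± 0.19 (limma adjusted p = 0.779) against 0.71, and that of MRPL3 0.22 ± 0.14 (adjusted p = 0.225) against 0.40. Of the 76 genes, 17 had more than 1 single-symbol probe set. MRPL33 and MRPL35 had another probe set with the opposite sign in normal teats. For MRPL33 both passed: the brighter probe set gave 0.63 ± 0.12 (limma adjusted p = 9.20e-04) and the dimmer one -0.56 ± 0.19 (adjusted p = 0.0268), so the probe sets disagree on its direction. The counts above take the brighter one, and MRPL33 is thereby among the genes counted as higher in both teat types. For MRPL35 the brighter probe set gave 0.46 ± 0.12, while the dimmer ones gave 0.11 ± 0.16 and -0.41 ± 0.26 and did not pass.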

How the data were processed

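Each of the 30 arrays has 1 log2 value for each of 24123 probe sets, taken as deposited; the base was inferred from the range. GCOS 1.1.1 and PLIER are named, without a role, per the submitters' processing notes. Whether arrays were normalised to one another is not given in the sources used here. Precision is limited by how many arrays there are. Of the probe sets, 124 controls were left out; 10069 others carry 1 gene symbol in the platform table, 198 several and 13732 none. Of 99 single-symbol probe sets matching the symbols, the brightest per gene gave 76 genes; 6 with several symbols were left out. The Entrez IDs of 75 of the 76 were found in RefSeq's gene table. No genome or sequence table was used, so no coordinates or sequences are given.

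Tests used the lmFit, contrasts.fit and eBayes functions of limma 3.58.1 (R 4.3.3) with Benjamini-Hochberg adjustment over all probe sets tested, at 0.05. Tested were probe sets that exceeded the 30th percentile of the array on at least 5 arrays of the fit. The tissue comparison in normal teats used 20 arrays with affection status as a covariate, that in inverted teats 10 arrays, teat comparisons the 15 arrays of a tissue, and differences of tissue differences all 30. The labels number the animals, and arrays of 1 number were taken to come from the same pig. After removal of group means, the r between both teats of a pig was 0.24 to 0.54 (epithelial) and 0.14 to 0.67 (mesenchymal), and that between both tissues -0.03 to 0.69. The own animal gave the highest r in 5 of 5 and 4 of 5 arrays between teats. Between tissues it did so in 4 of 5 non-affected, 3 of 5 affected normal and 2 of 5 inverted teats. The animal entered as a replicate block in alternatives. Alternatives also covered quantile normalization, median centring, the filter, probe set averaging, eBayes settings, cell type covariates and leaving out each animal. The fits were also run on simulated arrays with few changed probe sets and noise drawn independently for each probe set. In these data many probe sets are called together, so that run does not measure the error rate here.

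The 76 genes and all lists were chosen with earlier results of these data known. Named are all TIMM and TOMM genes, the 6 highest and 6 lowest tissue differences of each ribosomal subunit, 2 genes per other list by size of difference, 2 per direction and teat comparison by p, and genes whose probe sets disagree. MRPL24, MRPL43 and MRPS21, and genes listed by their calls, were named after their values were seen.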

Additional observations from a re-analysis of the deposited data

Results flagged for a closer look

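In groups of 5 arrays, 4 of the 90 group values of single genes and gene groups looked at had an array standing apart from the other 4 by Dixon's test; chance gives about 1 in 20. MRPS2 was 7.09 in the epithelial inverted teat of animal 964, with the other 4 arrays at 7.78 to 7.98, and 7.82 in the mesenchymal normal teat of animal 950, with the others at 8.75 to 9.11. TOMM22 was 8.12 in the epithelial normal teat of animal 964, with the others at 8.51 to 8.65. TOMM70 was 5.52 in the mesenchymal normal teat of animal 1040, with the others at 6.73 to 7.11. Over all 76 genes, 18 of 456 gene and group combinations (3.95%) had such an array. Of these, 5 were low values of animal 950 in mesenchymal normal teats and 3 low values of animal 964 in epithelial normal teats.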

How the results depend on the processing

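No gene of the 76 was called higher in epithelial tissue under any alternative run for normal or inverted teats. The count called higher in normal teats (59, with 20.6% of all probe sets) was 18 with the muscle covariate (9.3%) and 23 with the keratin covariate (8.29%). It was 0 with the adipocyte covariate (0.00547%, median of the 76 genes 0.29) and 53 to 60 with each animal left out (16.6% to 21.4%). The count in inverted teats (56, with 11.5%) was 0 with quantile normalization (0.00585%), 7 with median centring (2.81%) and 25 without a filter (4.29%). It was 0 to 43 with each animal left out (0.00602% to 7.93%). Alternatives chosen after seeing the data gave 26 (7.58%, quantile normalization with the replicate block) and 0 (0.00585%, muscle covariate). The cause was not tested. In the 30-array fit the counts for non-affected normal, affected normal and inverted teats (30, 33 and 61) were 12, 17 and 16 with quantile normalization (median 0.35 for non-affected), 15, 21 and 40 with median centring, and 3 to 31, 0 to 37 and 15 to 61 with animals left out. Calls over all probe sets were not counted for these alternatives of the 30-array fit. A fall particular to the 76 genes thus cannot be told from a general one.

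With the animal as a replicate block, random or fixed, 63 or 62 genes were called higher in normal teats (26.3% or 25.4% of all probe sets). In inverted teats 66 or 50 were called higher (18.5% or 12.8%). In the 30-array fit the counts were 48 or 45, 55 or 51 and 65 or 67. MRPS35, MRPL10 and MRPL11 passed under either block and MRPL14 under the random one; the paired fits called no probe set in any teat comparison. Without animal 957, limma called 1 probe set between affected and non-affected animals in mesenchymal tissue.

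Some uncalled differences changed sign: MRPS26 with quantile normalization (-0.15, block or not); MRPS27 (-0.17), MRPS35 (-0.17), TIMM8A (-0.072), TIMM9 (-0.085) and TOMM34 (0.20) with the muscle covariate; MRPL10 (-0.076), MRPL50 (-0.33) and TOMM70 (0.52) with the adipocyte covariate; MRPL50 (-0.052) and TOMM34 (0.10) with the keratin covariate. With animals left out, TIMM21 ran from -0.12 to 0.00013 and TOMM34 from -0.12 to 0.051 between tissues, MRPL1 from -0.31 to 0.039 for inverted against non-affected mesenchymal tissue, and MRPS27 from -0.020 to 0.17 for inverted against normal epithelial tissue. Signal over background limits MRPS30, MRPL50, MRPS28 and TOMM34, which fell under the 30th percentile on some arrays.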
